A study of Mus musculus with 2 samples.

Results

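The stem cell heptad genes described here are Tal1, Lyl1, Lmo2, Ldb1, Erg and Fli1, 6 of the 21728 protein-coding genes counted on chromosomes 1 to 19 and X. They were chosen by name, with earlier results of these data known, and the rule itself uses no measured value. Chromatin accessibility was measured by single-cell ATAC-seq, in which a transposase cuts and tags open chromatin in single nuclei, in hematopoietic stem cells (HSCs) sorted from mouse bone marrow as cells positive for Sca-1, c-kit and CD150 and negative for IL-7, Lin, CD34, CD48 and Flt3. The young group (Young HSC) came from C57BL/6 mice 10 weeks old and the aged group (Aged HSC) from C57BL/6 mice 20 months old, female in both cases per the study's methods, with no treatment or transgene named for either. Each age was 1 library, and how many mice were pooled for it is not given in the sources used here. No spread between animals could be measured and no test was made, so every interval below is an exact 95% interval for counting error only.

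Tal1, Lyl1, Lmo2, Erg and Fli1 belong to the group of transcription factors, with Gata2 and Runx1, that is known as the heptad because its members bind together at many enhancers of blood stem and progenitor cells. Tal1 and Lyl1 are basic helix-loop-helix factors that pair with E proteins and bind E-box sequences, and Erg and Fli1 are ETS factors that bind sequences around GGAA. Lmo2 binds no DNA itself and joins Tal1 or Lyl1 to GATA factors, while Ldb1, a partner protein outside the heptad proper, holds Lmo2 and can bring distant elements together by forming dimers. The genes also carry each other's binding sites, so their own enhancers are textbook examples of a circuit in which the factors act on one another. The question addressed here was whether accessibility at these loci differed between the young and the aged library.

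Elements known from the literature are named by their distance in kb from the start of the gene, and the Tal1 elements -4 and +40 are shown because both were lower in the aged library. The 200 bases at the summit of each peak, GRCm38 plus strand, are given with every match to a GATA motif (AGATAA or AGATAG or TGATAA or TGATAG), an E-box (CAGATG or CAGCTG) or an ETS motif (AGGAAA or AGGAAG or CGGAAA or CGGAAG) on either strand in capitals. They lie at chr4:115052629-115052828 (element -4) and chr4:115095836-115096035 (element +40), both between genes.
Tal1 -4: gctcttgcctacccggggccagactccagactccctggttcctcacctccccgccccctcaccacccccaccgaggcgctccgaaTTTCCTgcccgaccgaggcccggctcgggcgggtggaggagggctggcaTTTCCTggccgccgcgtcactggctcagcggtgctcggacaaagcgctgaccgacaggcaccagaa
Tal1 +40: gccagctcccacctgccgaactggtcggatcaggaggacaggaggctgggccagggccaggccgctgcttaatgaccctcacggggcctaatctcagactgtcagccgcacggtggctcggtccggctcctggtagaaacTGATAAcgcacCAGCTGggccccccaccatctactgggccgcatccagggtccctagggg

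The element +40 held a GATA motif and an E-box close to each other, and also the spaced motif that Tal1 complexes are known to bind, an E-box part and a GATA part with 9 bases between them (CTGNNNNNNNNNGATA), which overlaps the GATA motif. That spaced motif was found in 2.64% of the 145853 combined peaks whose centre lay over 1 kb from the 5′ end of any protein-coding gene, called distal peaks below. A GATA motif was found in 25.6% of them, an E-box in 27.1% and an ETS motif in 65.9%. The element -4 held 2 ETS motifs and neither of the other kinds. All 3 kinds together were found in 4.45% of distal peaks and in 10 of the 278 distal peaks of the 6 loci, or 3.60%.

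For Erg, distances were counted from each annotated start codon. Of the peaks found within 3 kb of +85, the one with the most fragments is shown as the candidate for the stem cell enhancer of this gene (chr16:95439254-95439453). With it is shown the peak of the locus with the largest gain in the aged library (chr16:95464729-95464928), and both are in introns of Erg. For Lyl1, whose promoter is its known stem cell element, the RefSeq promoter table of GRCm38.p6 gave the 250 bases before the start (chr8:84701207-84701456). Of the 6 genes, 4 had an entry in that table, and Lmo2 and Fli1 did not.
Erg +85 from the start codon: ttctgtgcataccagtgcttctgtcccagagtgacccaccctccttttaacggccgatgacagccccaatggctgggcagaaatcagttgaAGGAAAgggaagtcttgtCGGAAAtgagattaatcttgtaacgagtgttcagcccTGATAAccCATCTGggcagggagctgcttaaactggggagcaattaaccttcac
Erg peak with the largest gain: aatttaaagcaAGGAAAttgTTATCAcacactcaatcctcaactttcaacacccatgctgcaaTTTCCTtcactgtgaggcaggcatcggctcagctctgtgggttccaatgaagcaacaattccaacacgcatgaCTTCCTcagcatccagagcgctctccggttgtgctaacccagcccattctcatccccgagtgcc
Lyl1 promoter: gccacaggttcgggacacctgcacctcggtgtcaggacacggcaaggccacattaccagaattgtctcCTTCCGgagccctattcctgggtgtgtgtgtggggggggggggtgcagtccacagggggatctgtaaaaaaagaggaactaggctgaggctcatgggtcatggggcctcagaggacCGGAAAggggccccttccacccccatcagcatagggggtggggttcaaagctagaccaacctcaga

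The Erg element +85 held a GATA motif, an E-box close to it and 2 ETS motifs. The gained Erg peak held a GATA motif and 3 ETS motifs and no E-box of these letters. The Lyl1 promoter held 2 ETS motifs and neither of the other kinds in the 250 bases shown. The peak over its start has its summit at position 84701648, and the 200 bases there lie downstream of the bases shown and share none with them. Those 200 bases held 2 GATA motifs, 2 other ETS motifs and the spaced motif once. Of the 18638 peaks that were not distal, 1.07% held the spaced motif.

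The young library held 53786133 unique fragments and 4887 cells used here, and the aged library 48333115 and 3405, with medians of 9888 and 11019 fragments per cell. Levels are given as fragments per 1000000 fragments in peaks (FPM), of which there were 34634379 and 26142726 in these cells. Short fragments, under the length of DNA wound on 1 nucleosome, made up 59.8% of the young and 55.0% of the aged library, and values from short fragments alone are given for some results. The libraries shared 26 cell barcodes. Accessibility at the 5′ ends of the HSC marker list had a median of 18.0 FPM in young and 19.3 FPM in aged HSCs, against 14.6 and 15.4 FPM over all protein-coding genes, and its median log2 ratio of aged to young was -0.05, from -0.10 to 0.43 over the 7 genes with at least 100 fragments. Of these, Slamf1 (0.43, 0.18 to 0.69), Hoxb5 (0.28, 0.13 to 0.43) and Procr (0.21, 0.02 to 0.39) had intervals above 0. Mecom was at 0.520 and 0.536 FPM at its annotated 5′ end. The T cell list had medians of 1.47 and 0.650 FPM, the B cell list 2.82 and 2.87, the granulocyte and monocyte list 1.59 and 1.80, the erythroid list 6.96 and 5.97, and the megakaryocyte list 29.0 and 24.1. Endothelial genes, several of which HSCs also use, had medians of 11.1 and 14.2 FPM, with log2 ratios from -0.66 to 0.44 and a median of 0.16. A median level can fall on a different gene in each library. The part of these differences in the results below was not tested.

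At the starts of the genes, windows of 1 kb on either side of the annotated 5′ end were counted first. None of the 6 windows differed by 1.5-fold or more between the ages. Among all 15003 protein-coding windows with at least 100 fragments in the libraries together, 3.37% were higher in the aged library by that much and 0.587% were lower. The median log2(aged/young) of all these windows was -0.05, so small negative values were common. Among the 10473 windows with at least 1000 fragments the median was -0.07, and 78.0% were below 0. Ranks of single genes below are over windows of all depths. Summed over the 6 genes, the windows gave 219.5 FPM in young and 215.3 FPM in aged HSCs.

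Of the helix-loop-helix genes, the Tal1 window (chr4:115055426-115057426) held 1744 young and 1326 aged fragments, or 50.4 and 50.7 FPM. The log2 ratio was 0.01 (-0.09 to 0.11), and the level was above that of 88.1% of genes in the young library. The Lyl1 window (chr8:84700457-84702457) was the most accessible of the 6, with 3049 and 2052 fragments, or 88.0 and 78.5 FPM. Lyl1 was lower in the aged library, with a log2 ratio of -0.17 (-0.25 to -0.08), while 14.7% of all windows had a still lower ratio. Among windows with at least 1000 fragments, the 25th percentile was -0.13 and the 5th was -0.22. The Lyl1 gene body, 3.26 kb long, gave -0.13 (-0.21 to -0.05), and without the start window the ratio was -0.06 (-0.21 to 0.09). The Tal1 gene body gave -0.02 (-0.09 to 0.06).

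Lmo2 is transcribed from a distal and a proximal promoter, and these moved in opposite directions. The distal start (chr2:103956986-103958986), which is the annotated 5′ end, held 167 young and 177 aged fragments, or 4.82 and 6.77 FPM, the lowest level of the 6 genes. Its log2 ratio was 0.49 (0.18 to 0.80), and 95.6% of all windows had a lower one. The proximal start, 12.3 kb downstream at position 103970244, held 1296 young and 795 aged fragments, or 37.4 and 30.4 FPM, and gave -0.30 (-0.43 to -0.17). The difference between the starts was 0.79 on the log2 scale (0.45 to 1.13). With every cell thinned at random to 3000 fragments in peaks, the distal start gave 0.24 and the proximal start -0.18. This contrast was chosen after the values were seen.

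The gain at the distal start of Lmo2 came with longer fragments. Short fragments made up 57.5% of the window in young and 41.2% in aged HSCs, and from short fragments alone the log2 ratio was 0.10. At the proximal start the ratio stayed between -0.33 and -0.18 under the 8 alternatives tried. Within this promoter the peak at chr2:103969783-103970656 went from 578 to 304 fragments (-0.52, -0.73 to -0.32), while its neighbour just upstream at chr2:103969304-103969740 went from 641 to 472 (-0.03, -0.21 to 0.14). The Lmo2 gene body, which holds the proximal start, gave -0.11 (-0.19 to -0.04).

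Ldb1 differed little at its start. Its window (chr19:46044214-46046214) held 1668 young and 1217 aged fragments, or 48.2 and 46.6 FPM, with a log2 ratio of -0.05 (-0.16 to 0.06). The start 5.59 kb downstream gave -0.11 (-0.23 to 0.01). The Ldb1 gene body was lower at -0.14 (-0.22 to -0.07), and without the start window it was -0.13 (-0.22 to -0.05). The neighbouring gene Pprc1, which starts 0.328 kb from Ldb1 in the other direction, shares much of this window and gave -0.05 (-0.17 to 0.06).

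Both ETS genes had ratios above 0 at their 5′ ends, with an interval that included 0 for Erg. The Erg window (chr16:95585593-95587593) held 401 young and 349 aged fragments, or 11.6 and 13.3 FPM, and gave 0.21 (-0.01 to 0.42). A start inside the gene, 127.2 kb downstream at position 95459348, was more accessible, with 860 and 779 fragments, or 24.8 and 29.8 FPM. There the log2 ratio was 0.26 (0.12 to 0.40), and it lay between 0.22 and 0.32 under the 8 alternatives tried. The starts at 56.2 and 62.0 kb, which serve other long transcripts, were nearly closed, with 8 to 11 fragments per library.

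The Fli1 window (chr9:32541861-32543861) held 574 young and 508 aged fragments, or 16.6 and 19.4 FPM, and gave 0.23 (0.05 to 0.40). With a window of 2 kb on either side the ratio was 0.03. The start used by the main transcript, 1.27 kb downstream, held 938 and 682 fragments, or 27.1 and 26.1 FPM, and gave -0.05 (-0.20 to 0.09). The windows overlap, and the difference between them was 0.28 (0.06 to 0.51), an interval that takes them as separate. Over whole gene bodies, Erg (227.4 kb) gave 0.02 (-0.02 to 0.06) and Fli1 (120.7 kb) 0.04 (0.00 to 0.09). From short fragments alone Erg gave -0.04 and Fli1 -0.02, so neither body had a direction that held for both fragment classes. With ratios centred on the median promoter, Erg gave 0.07 and Fli1 0.10. No gene body of the 6 reached 1.5-fold, against 2.94% of 17667 gene bodies that were higher by that much and 0.47% that were lower.

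**Figure D1:**
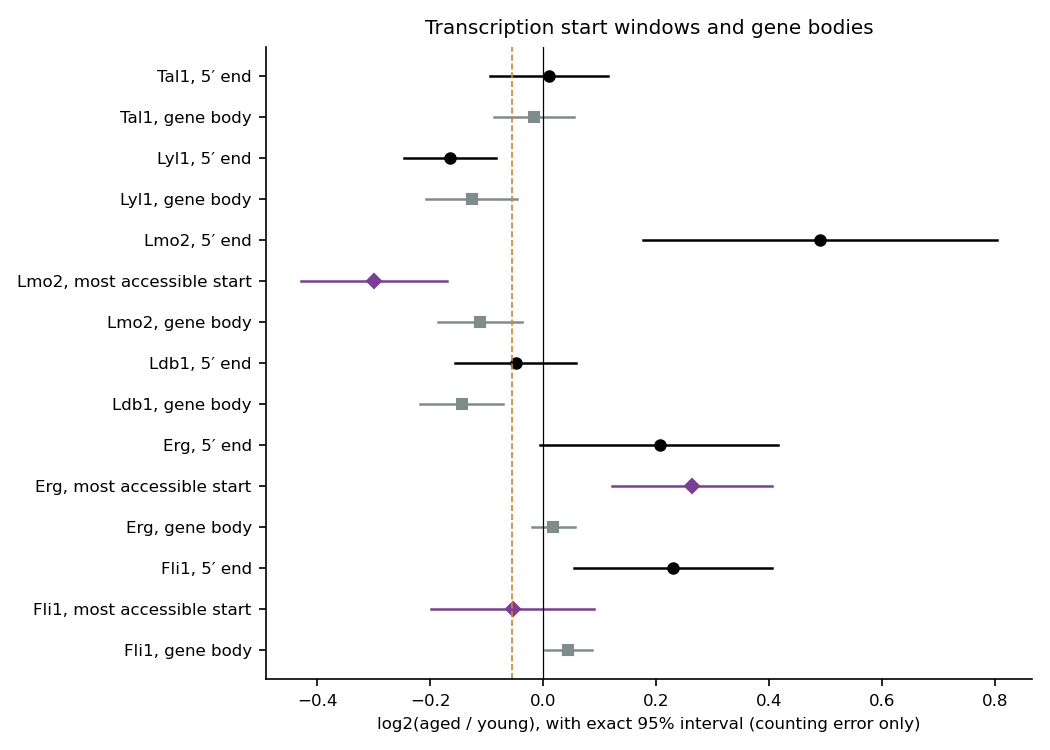
log2(aged/young) of FPM on the x axis for the window of 1 kb on either side of the annotated 5′ end (black circles), for the most accessible other start of Lmo2, Erg and Fli1 (purple diamonds) and for the gene body (grey squares), with exact 95% intervals as lines; the dashed line is the median of all protein-coding start windows, -0.05. The distal 5′ end of Lmo2 lies at 0.49 and its most accessible start at -0.30, on opposite sides of 0.

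Per kb of gene, accessibility followed another order than at the annotated 5′ ends, and this order ran from the shortest gene to the longest. The part of gene length in it was not tested. At their most accessible starts, Lmo2 had 37.4, Fli1 27.1 and Erg 24.8 FPM in young HSCs, in the same order as per kb. Tal1 (55.5) was above Ldb1 (48.2) there, the other way than per kb. Lyl1 was highest at 26.7 FPM per kb in young and 24.5 in aged HSCs, followed by Ldb1 (7.83 and 7.09) and Tal1 (7.11 and 7.03). Lmo2 had 4.40 and 4.07, Fli1 2.51 and 2.59, and Erg 1.65 and 1.67 FPM per kb. The order of the genes was the same in both libraries, and Ldb1 and Tal1, which are neighbours in it, were nearly equal in the aged library.

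The Tal1 elements -4 and +40 were lower in the aged library, while the window at the annotated 5′ end of Tal1 was not. Of its other annotated starts, that at position 115057811 was also lower (-0.12, -0.24 to -0.003). Those at 115057438 (-0.01, -0.11 to 0.09) and 115059508 (-0.05, -0.25 to 0.14) had intervals that included 0. The element +40, known for activity in stem cells and in the erythroid lineage, was the most accessible peak of the locus, with 2939 young and 1957 aged fragments, or 84.9 and 74.9 FPM. Its log2 ratio was -0.18 (-0.26 to -0.10), and it ran from -0.27, with each cell thinned to 3000 in-peak fragments, to -0.12, from short fragments alone, under the alternatives tried. The element -4, also known from endothelium, held 670 and 420 fragments, or 19.3 and 16.1 FPM, and gave -0.27 (-0.45 to -0.09).

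Against the Tal1 start window in the same libraries, the element -4 differed by -0.28 (-0.49 to -0.07) and +40 by -0.19 (-0.32 to -0.06). These contrasts were chosen after the values were seen. They use the annotated 5′ end only and were not computed against the other Tal1 starts. Among all 26699 distal peaks with at least 400 fragments the median log2 ratio was -0.02, and the middle part from the 25th to the 75th percentile ran from -0.15 to 0.15, so both Tal1 elements lay below that part and above the 5th percentile of -0.39. Among the 7007 distal peaks with at least 1000 fragments the median was -0.05. Their middle part ran from -0.15 to 0.06, and their 5th percentile was -0.31. Counted from the start codon of Tal1 in place of the 5′ end, the distances led to other peaks, and the match of a peak to a published element is uncertain to that extent. The peak so found for +40 gave 0.24 (-0.002 to 0.48) and that for -4 was the promoter peak at 0.01. Counted from the annotated start at 115059508, +40 led to a peak with 279 and 270 fragments that was higher in the aged library (0.36, 0.11 to 0.61). From there -4 again led to the promoter peak. The starts at 115057438 and 115057811 led to the same peaks as the 5′ end.

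The Lmo2 distances depended on where counting began, and these names are uncertain. From the 5′ end, the peak for -75 held 240 young and 142 aged fragments (-0.35, -0.66 to -0.05), that for -25 held 1042 and 837 (0.09, -0.04 to 0.22), that for -12 held 951 and 776 (0.11, -0.03 to 0.25), and that for +1 was the distal promoter itself. From the start codon, -75 was a peak with 383 and 247 fragments (-0.22, -0.46 to 0.01), and -25 was the peak just given for -12. The peak for -12 was then the distal promoter peak with 123 and 137 fragments (0.56, 0.20 to 0.92). That for +1 was the upstream part of the proximal promoter at -0.03, which lies before the start codons. Each was the peak with the most fragments within 3 kb. Counted from the start codon at position 103970359, weaker peaks lay nearer to these distances. Those for -75 (chr2:103894977-103895324, 0.37, -0.02 to 0.75) and -25 (chr2:103944836-103945268, -0.30, -0.54 to -0.07) differed in sign from the peaks given. That for +1 (chr2:103971226-103971496) gave -0.16 (-0.53 to 0.19).

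For Erg no peak lay within 3 kb of +85 counted from the 5′ end. From the start codon at position 95524565, the peak at chr16:95439116-95439785, whose summit sequence is given, held 984 young and 632 aged fragments, or 28.4 and 24.2 FPM. Its log2 ratio was -0.23 (-0.38 to -0.09), and it differed by -0.50 (-0.70 to -0.29) from the internal start of Erg, which was higher in the aged library. This contrast, with the internal start in place of the annotated 5′ end, was also chosen after the values were seen. The start at position 95524603 led to the same peak, and the remaining start codons and starts to peaks of 25 and 16 fragments, of 50 and 22, or of more fragments at -0.01. The Fli1 element -15, at chr9:32556052-32556731, was the most accessible peak of its locus and was equal in the libraries, with 32.5 and 32.6 FPM (0.00, -0.13 to 0.13). Counted from the start codon at position 32476692, -15 led to another peak, with 169 and 111 fragments (-0.20, -0.56 to 0.15), and +12 to none. The Fli1 element +12, matched at 13.1 kb, held 228 and 182 fragments (0.08, -0.21 to 0.37). Weaker peaks nearer to that distance, at 11.7 kb (119 and 67 fragments, -0.41, -0.88 to 0.02) and 12.5 kb (32 and 39, 0.68, -0.02 to 1.41), differed in sign, so the match is uncertain.

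**Figure D2:**
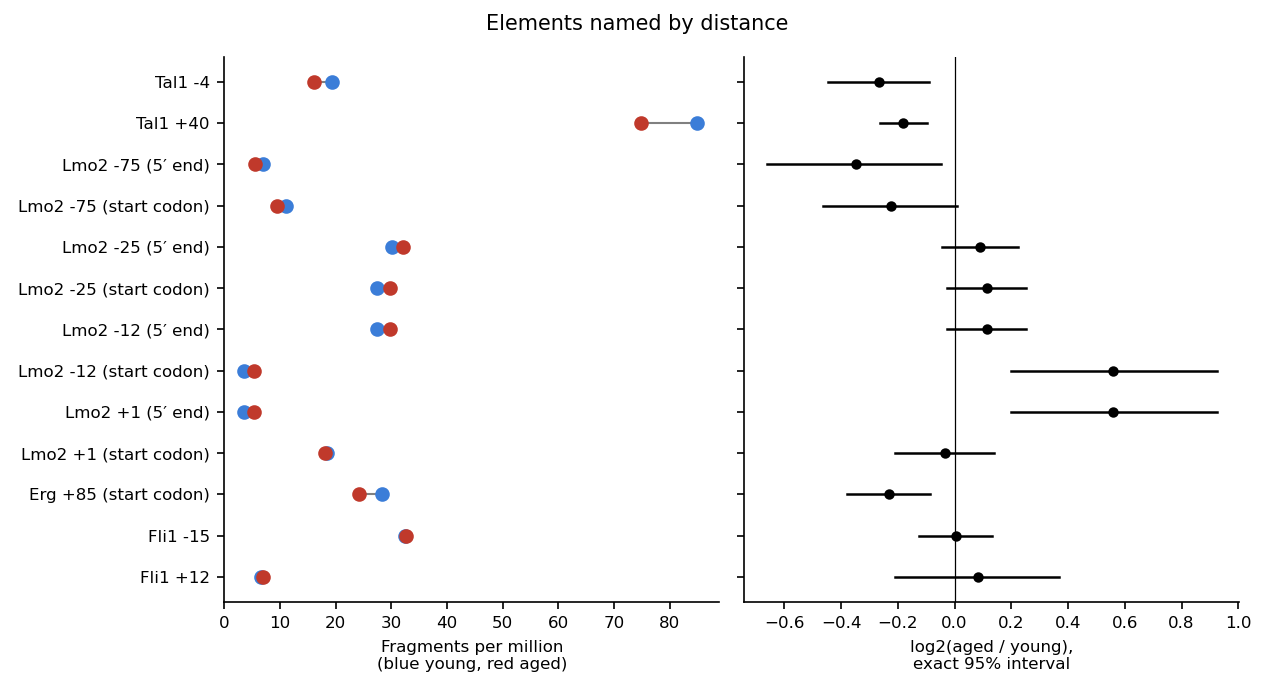
Peaks matched to named elements, with FPM in the young (blue) and aged (red) library on the left and log2(aged/young) with exact 95% intervals on the right; Lmo2 elements are shown for both origins of the distance. The Tal1 elements and the Erg element lie between -0.27 and -0.18, and Fli1 -15 lies at 0.00.

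Across the loci, from 100 kb before to 100 kb after each gene, 315 of the 164491 combined peaks were found, and 237 of them had at least 100 fragments. The Fli1 locus had 81 peaks, Erg 74, Lyl1 61, Lmo2 39, and Tal1 and Ldb1 30 each. Of the 237 peaks, 14 were higher in the aged library by 1.5-fold or more (5.91%) and 2 were lower (0.844%). Among all 97318 combined peaks with that many fragments, 9.6% were higher and 4.01% lower. The share past 1.5-fold over the 6 loci together was below that of the genome in each direction, while that of higher peaks in the Erg locus alone was above it (12.8%); these are descriptions without a test. The median of the 237 peaks was -0.04, against 0.00 for all peaks.

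The 14 higher peaks were in the Erg locus (6 of 47 peaks, 12.8%), the Fli1 locus (5 of 59, 8.47%), the Tal1 locus (2 of 27, 7.41%) and the Lyl1 locus (1 of 47, 2.13%), and none were in the Lmo2 or Ldb1 loci. Peaks were assigned to a locus by position alone, and some of the 14 lie nearer to the start of another protein-coding gene. From short fragments alone, all 14 were above 0 and 13 were past 1.5-fold. Short fragments are part of the counts by which these peaks were chosen, so this gives no separate support. The 14 peaks were weak elements, and the most fragments that any of them held in the aged library was 297. The minimum of fragments was set on both libraries together. A peak with few young fragments could therefore pass it through its aged count, and a lower peak through its young count. The part of this in the number of peaks past 1.5-fold was not tested.

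In the Fli1 locus, the peak at -52.7 kb (chr9:32595298-32595751), between Fli1 and Ets1 and nearer to the start of Ets1, went from 20 young to 91 aged fragments, or from 0.577 to 3.48 FPM. Its log2 ratio of 2.54 (1.88 to 3.37) was the highest of all peaks in the 6 loci, and it was 3.20 from short fragments alone. With 20 young fragments, this peak passed the minimum mainly through its aged count. Among Fli1 peaks with at least 100 fragments, the one with the lowest ratio, at -17.2 kb, went from 171 to 90 fragments (-0.51, -0.90 to -0.14). The start of Ets1, another ETS factor gene, held 264 and 186 fragments and gave -0.10 (-0.38 to 0.18).

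At Erg, the gained peak whose sequence is given, in an intron 121.8 kb from the 5′ end, went from 55 young to 129 aged fragments, or from 1.59 to 4.93 FPM, with a log2 ratio of 1.62 (1.17 to 2.12). It lies upstream of the internal start that was also higher in the aged library, and a weaker peak between them, at 126.1 kb, went from 56 to 78 fragments (0.88, 0.37 to 1.41). Further gains at Erg lay at 200.9 kb in an intron (63 to 110 fragments, 1.2) and between genes at -51.4 kb (40 to 75 fragments, 1.30). The 2 most accessible peaks of Erg, that at 134.0 kb and the one matched to +85, were lower in the aged library. The peak at 134.0 kb went from 1042 to 654 fragments (-0.27, -0.41 to -0.12). The next most accessible, at 127.1 kb, went from 580 to 548 (0.32, 0.15 to 0.49), so higher and lower peaks lay side by side in the introns of this gene.

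At Tal1, the peak at -97.9 kb (chr4:114958170-114958791), between genes, went from 184 to 297 fragments, or a log2 ratio of 1.09 (0.83 to 1.37). The peak at -21.2 kb, in an intron of Stil, a centriole gene, went from 38 to 93 fragments (1.67, 1.14 to 2.28). The lowest ratio among Tal1 peaks was at 15.4 kb, just past the end of the gene, where 151 young and 76 aged fragments gave -0.58 (-1.002 to -0.18).

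The other loci held fewer such peaks. At Lyl1, a peak 20.3 kb downstream in an exon of Nfix, which encodes a nuclear factor, went from 201 to 99 fragments (-0.61, -0.98 to -0.26), and the peak at 85.1 kb from 57 to 74 (0.78, 0.26 to 1.31). At Lmo2, an intron peak at 7.65 kb went from 79 to 37 fragments (-0.67, -1.29 to -0.11), and the peak at -56.2 kb, just inside the 1.5-fold limit, from 404 to 203 (-0.58, -0.84 to -0.34). At Ldb1, the most accessible peak, at -11.6 kb in an intron of Pprc1, gave -0.17 (-0.27 to -0.07). Among Ldb1 peaks with at least 100 fragments, the lowest ratio was -0.58 (-0.91 to -0.27) at 18.6 kb and the highest 0.36 (0.07 to 0.65) at -91.4 kb. From short fragments alone the peak at 18.6 kb gave -0.97.

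**Figure D3:**
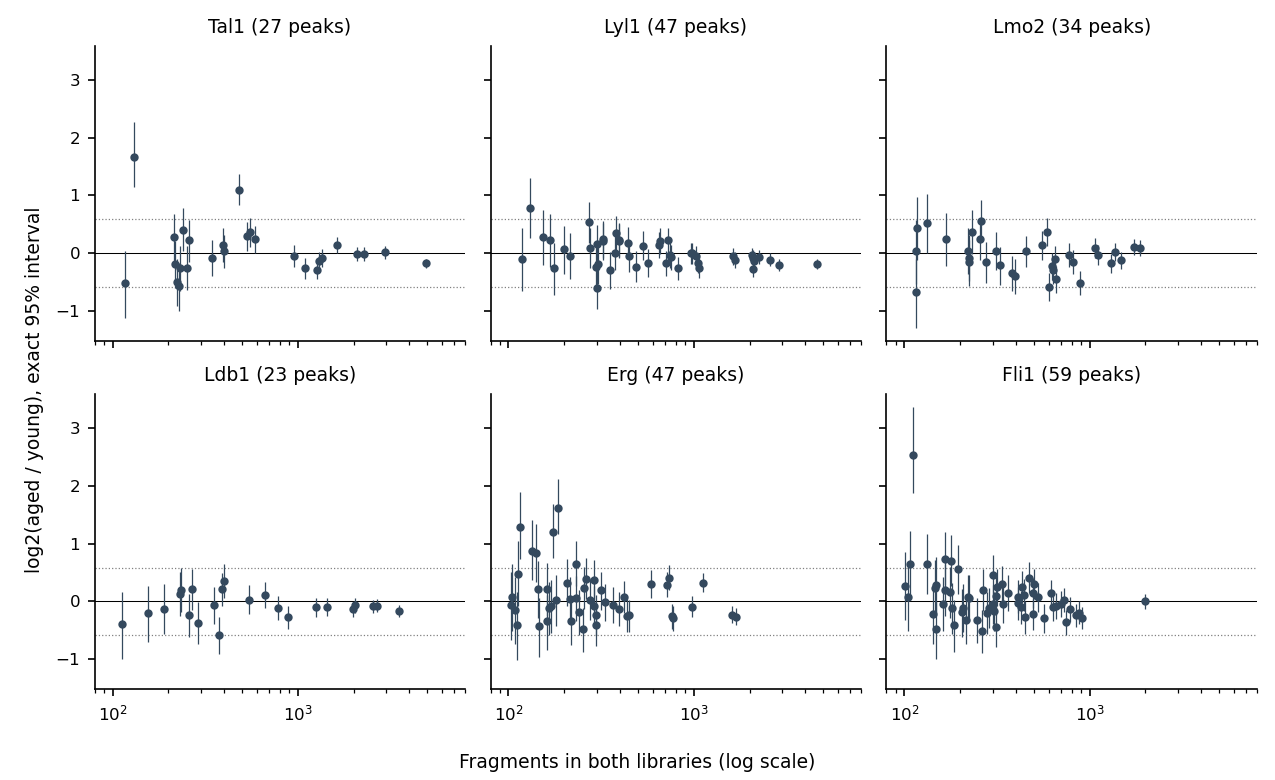
Combined peaks with at least 100 fragments in each locus, with the number of fragments in both libraries on a log x axis and log2(aged/young) with its exact 95% interval on the y axis; dotted lines mark 1.5-fold in either direction. Peaks past the upper line are mostly weak and in most cases lie in the Erg and Fli1 loci, and the peaks with the most fragments lie inside both lines.

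Without regard to peaks, the loci were cut into 3215 bins of 500 bp, of which 544 had at least 100 fragments. Of these, 33 were higher in the aged library by 1.5-fold or more (6.07%) and 10 were lower (1.84%), against 9.01% and 2.9% of the 182074 such bins of the genome. Erg had 11 higher and 3 lower bins of 97, Lmo2 7 and 3, Fli1 7 and 1, Tal1 5 and 0, Lyl1 3 and 1, and Ldb1 0 and 2. From short fragments alone, with fewer bins that reached the minimum, 7 bins were higher, and 3 were after thinning or with a minimum of 200 fragments. The largest gains by bin were in the Tal1 locus (1.58, -21.2 kb) and in the Erg locus (1.52, 121.8 kb), at the peaks given above. In the Lmo2 locus 4 of the higher bins lay 25.8 to 29.8 kb from the 5′ end, just past the end of the gene, with ratios of 0.59 to 1.05.

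**Figure D4:**
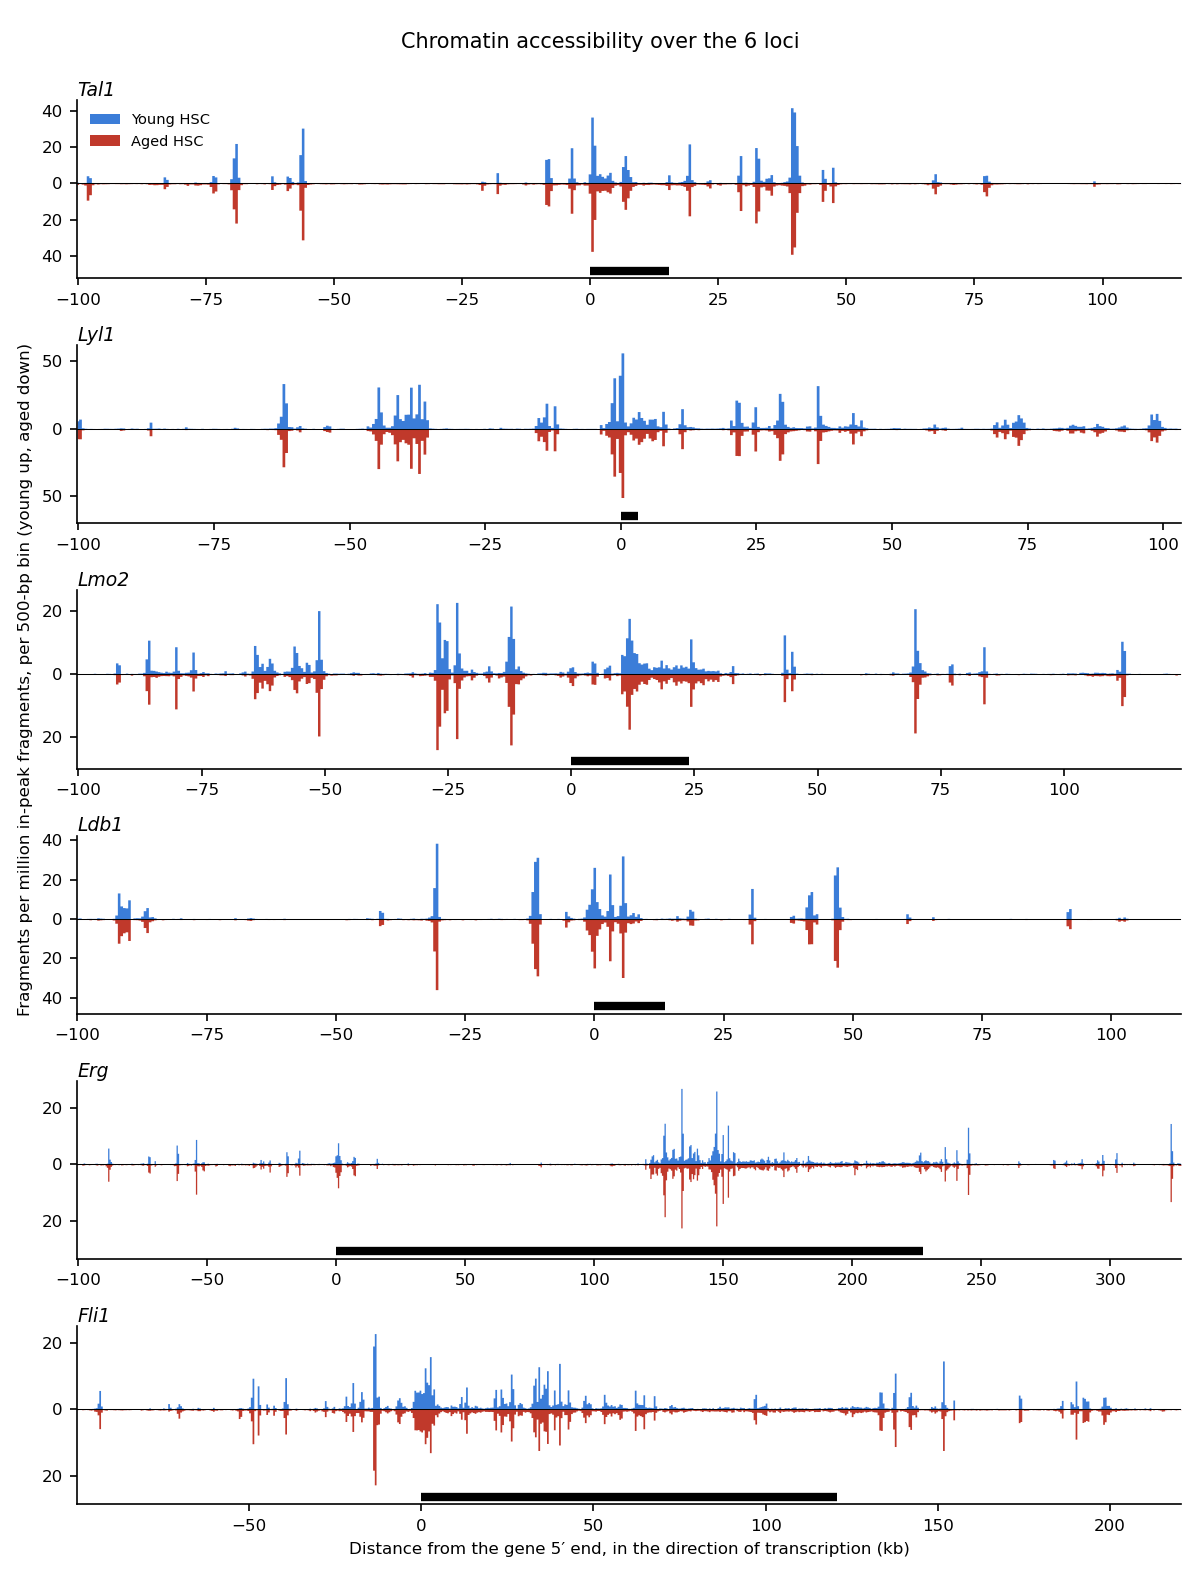
FPM per 500-bp bin over each gene (black bar) and 100 kb on either side, young upwards and aged downwards, by distance from the gene 5′ end in the direction of transcription. The profiles mirror each other at nearly every peak, the +40 element of Tal1 and the starts of Lyl1 reach the highest levels, and most of the open chromatin of Erg lies around and after its internal start.

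The share of cells with at least 1 fragment at a start was taken with every cell thinned at random down to 3000 fragments in peaks, and this kept 4788 young and 3271 aged cells. At the Tal1 start 14.4% of young cells (13.4 to 15.5) and 14.1% of aged cells (12.9 to 15.3) had a fragment. Without thinning these were 29.2% and 30.8%, in the other order. For Lyl1 the shares were 23.4% (22.2 to 24.6) and 20.3% (18.96 to 21.8), and without thinning they were 45.9% (44.5 to 47.3) and 43.3% (41.6 to 44.97). These intervals cover counting error over the cells of 1 library each and make no test of age. For Ldb1 the shares were 12.6% and 12.8%, but 20.9% and 19.8% with cells thinned to 5000 fragments, so the order turned with the depth. The distal start of Lmo2 was reached in 1.55% of young cells (1.22 to 1.94) and 1.80% of aged cells (1.38 to 2.32), and without thinning in 3.17% (2.70 to 3.70) and 4.85% (4.15 to 5.62). The proximal start was reached in 10.1% (9.23 to 11.0) and 9.08% (8.12 to 10.1) after thinning.

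The 5′ end of Erg had a fragment in 3.01% of young cells (2.54 to 3.53) and 3.67% of aged cells (3.05 to 4.37), but in 6.39% and 6.002% with cells thinned to 5000 fragments, so the order turned with the depth. The internal start of Erg had a fragment in 7.14% of young cells (6.43 to 7.91) and 8.71% of aged cells (7.77 to 9.73), and in 15.1% and 20.1% without thinning. The 5′ end of Fli1 had one in 4.47% (3.90 to 5.09) and 5.78% (5.003 to 6.63), and its main start in 7.71% and 7.21%. Without thinning the main start had one in 16.7% and 17.7%, in the other order. At the starts of genes silent in blood, 0.0418% of young and 0.0611% of aged cells had a fragment for Alb, 0.0418% and 0.0306% for Ins2, 0.0835% and 0.153% for Apoa2, 0.251% and 0.275% for Nppa and 0.292% and 0.214% for Myh6, while Gfap reached 2.80% of young cells and is no background. In fragments without thinning, the log2 ratios of these starts were 0.41 for Alb (8 and 8 fragments), 0.99 for Ins2 (3 and 5), 1.41 for Apoa2 (10 and 21), 0.51 for Nppa (27 and 29), 0.14 for Myh6 (23 and 19) and -0.04 for Gfap. Median start-site enrichment per cell was 5.78 for young and 5.30 for aged HSCs, and 69.2% and 67.6% of fragments lay in peaks. The part of these values in the gains at weak windows, the distal start of Lmo2 among them, was not tested. The distal start of Lmo2 was thus above those silent starts but below Gfap. A fragment at 1 or more of the 6 annotated 5′ ends was found in 47.4% of young and 46.8% of aged cells.

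**Figure D5:**
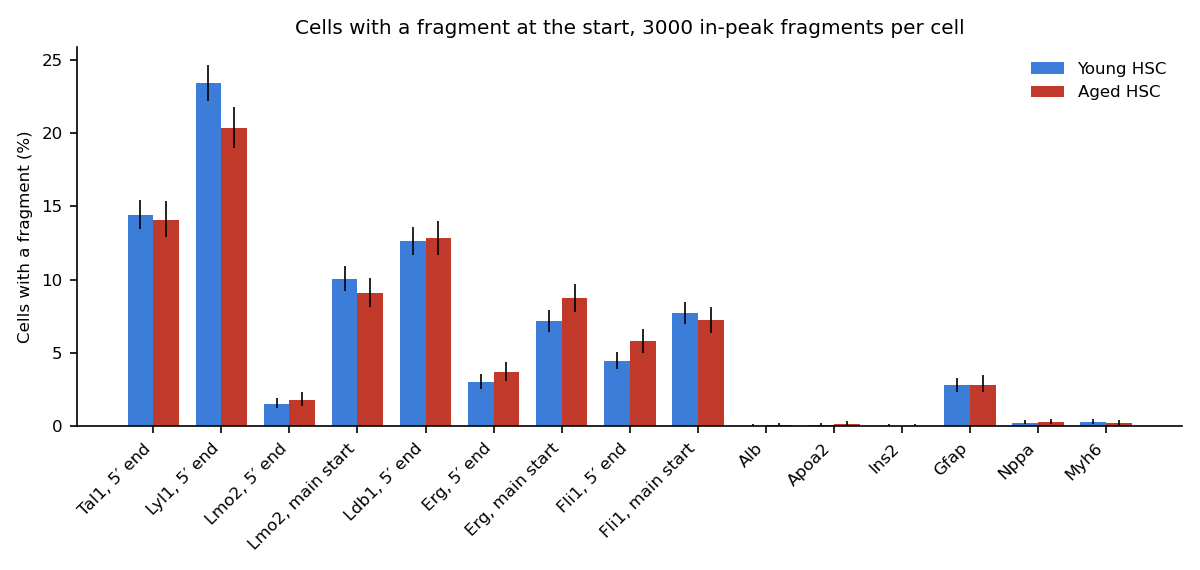
Percent of cells with at least 1 fragment at a start after thinning to 3000 in-peak fragments per cell, with exact binomial 95% intervals, for the 6 genes and for genes expected to be silent in blood. Lyl1 has the highest share, 23.4% in young and 20.3% in aged cells, and the silent genes other than Gfap lie near 0.

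The other genes of this circuit were described in the same way. Of the heptad genes not among the 6, Gata2 held 656 young and 572 aged fragments at its 5′ end (0.21, 0.04 to 0.37) and Runx1 1300 and 912 (-0.11, -0.23 to 0.02). Of 13 partners in the Tal1 and Lyl1 complex, 12 had at least 100 fragments, none was past 1.5-fold, and their median was -0.10, against -0.05 for all genes. Of the E protein genes, Tcf4, with the lowest ratio of the list (-0.25, -0.45 to -0.07), and Tcf3 (-0.21, -0.30 to -0.12) were lower in the aged library, while Tcf12 gave -0.01 (-0.14 to 0.12). Ldb2, the relative of Ldb1, had the highest ratio (0.17, -0.05 to 0.38), and Gata1 had 8 and 9 fragments at its annotated 5′ end.

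Of 14 genes known to be bound or controlled by these factors, 13 had at least 100 fragments, with a median of -0.03. Cdh5, an endothelial adhesion gene, was past 1.5-fold, going from 68 to 32 fragments (-0.66, -1.34 to -0.06), and none was higher by that much. The highest ratio was that of Tek, the angiopoietin receptor of HSCs and endothelium, which went from 385 to 395 fragments, or 11.1 to 15.1 FPM (0.44, 0.24 to 0.65). Around the 6 genes, 22 other protein-coding genes start within 100 kb, of which 20 had at least 100 fragments and none was past 1.5-fold, with a median of -0.05. The highest of them was Gm10799 near Lmo2 (0.53, 0.10 to 0.96) and the lowest Nfix near Lyl1 (-0.19, -0.35 to -0.04).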

How the data were processed

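The authors aligned reads to mm10 and counted them with Cell Ranger ATAC and used Signac, per the submitters' processing notes, and deposited a list of unique fragments and a table of counts per barcode for each library, as raw counts with no normalization. Barcodes marked as cells with 3000 to 20000 in-peak fragments in the authors' table were kept. Doublets were not removed, and an upper limit of 12000 was an alternative. Coordinates were read with GRCm38, the same build, and GENCODE M21, with Python 3.11.15, numpy 2.4.6, pandas 2.3.3 and scipy 1.17.1. Peaks were called anew on called cells of each library (windows of 151 bp against the local mean in 10000 bp, Poisson, q under 0.001, gaps up to 50 bp merged, width from 100 bp) and merged. Each fragment with an end inside a region added 1 to its count. Ratios are log2(aged/young) of counts per 1000000 in-peak fragments with a pseudocount of 1 fragment. Intervals are exact (Clopper-Pearson) and cover counting error only. Features with at least 100 fragments were compared, and 1.5-fold was the limit for counts. An element was the peak with the most fragments within 3 kb of its named distance. Genes named were the 6 members, the neighbours, partners and targets past 1.5-fold or with the highest and lowest ratio, and in each locus the peaks with the most fragments and the highest and lowest ratio; others given were chosen after their values were seen. The members and lists were chosen with earlier results of these data known. The ratio, its interval and the calls were tested on simulated data that held counting error only. That test says nothing about spread between libraries or mice. Alternatives were other sets of cells, scalings, windows, minimums, pseudocounts, thinning and short fragments alone. The authors' own peak calls were not used here beyond the in-peak counts of their table. An element listed for Tal1 is not reported here.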

Additional observations from a re-analysis of the deposited data

Results flagged for a closer look

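Barcodes with 3000 to 20000 in-peak fragments that the authors' pipeline did not call as cells also carried fragments at the 6 start windows, above the limit of 3 that a count of 0 allows. The 123 such young barcodes held 99 fragments there, or 231 FPM, and the 131 aged barcodes held 95, or 178.8 FPM, against 219.5 and 215.3 FPM in called cells.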

How the results depend on the processing

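Summed over the 6 genes, the start windows gave -0.03, and 0.027 when ratios were centred on the median promoter. Over the 11 alternatives this value ran from -0.077 to 0.027. The summed gene bodies gave -0.02, and -0.054 from short fragments, -0.049 scaled to all unique fragments and 0.038 centred. The named enhancer peaks together gave -0.08, and -0.13 with cells thinned and -0.027 centred. The number of higher bins (33) was 20 with at most 12000 in-peak fragments, 3 after thinning, 7 from short fragments, 9 past 2-fold, and 91, 3 and 690 with a minimum of 50, 200 and no fragments. The number of lower bins (10) was 6 after thinning or with a pseudocount of 10, 1 past 2-fold, and 31, 3 and 533 with those minimums. The share of cells with a fragment at a member start was 75.2% in both libraries without thinning, and 66.2% (young) and 63.9% (aged) at 5000 fragments. Reversed signs were those of Lmo2 (-0.30) and Fli1 (-0.053) at their most accessible start, and of the Fli1 body from short fragments (-0.023). The other single genes and peaks recomputed under these alternatives, which are not all those named above, kept their direction where the interval excluded 0. The origin of the Lmo2 and Erg distances was an alternative added after the data were seen. No paired analysis was possible because each age had 1 library, and for the same reason no library could be left out. Fragment counts set the width of every interval, and no interval covers differences between mice.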
